A study of Mus musculus with 4 samples.

Results

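Open chromatin was examined around 7 genes for transcription factors of villus maturation and zonation, Prdm1, Maf, Bcl6, Elf3, Ehf, Grhl2 and Hnf4g, 7 of the 21887 protein-coding genes of the RefSeq table for GRCm38.p6, the assembly that mm10 denotes. The genes were taken as a fixed list, which was chosen with earlier results of these data known. Every deposited peak whose midpoint lay in the gene body or within 50 kb of it was kept. That gave 57 peaks in the 72 h library, of 41343 in all, and 46 in the 0 h library, of 35857. A peak is a stretch where the transposase Tn5 cut more often than its surroundings in an assay for transposase-accessible chromatin (ATAC-seq). Here nearly every peak is 601 bp wide, a summit with 300 bp on either side. A peak that also passed a p-value threshold of 1e-10 is called strict, and one that passed 1e-05 but not 1e-10 is called weak. A peak is shared when at least 1 bp of it was covered by a 1e-05 peak of the other library.

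Both libraries came from intestinal organoids, miniature epithelia grown in basement membrane matrix from jejunal crypts of the mouse strain C57BL/6J. Each library was made from 30000 cells. At 72 h the organoids had spent that time with 100 ng/mL recombinant BMP2 in a medium with epidermal growth factor and R-spondin but without CHIR99021, valproic acid and Noggin. The 0 h organoids had received no BMP2 and were held in the full medium, which contains all of these additions. CHIR99021 activates Wnt signalling, valproic acid inhibits histone deacetylases and Noggin blocks bone morphogenetic proteins (BMPs), so the effect of BMP2 and that of the medium cannot be told apart. The series also has 24 h and 48 h libraries, which were not analysed here. Each time point is 1 library of unstated age and sex of mouse, so the differences below are without replicate error or p-value. Only peak positions and thresholds were available, and the read depth is unknown. In bulk chromatin, a change in the share of a cell type and a change in accessibility per cell cannot be told apart.

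Enterocytes mature and change their gene programme as they climb from the crypt mouth to the villus tip, along a rising gradient of BMP signalling. Several transcription factors shape that course in the mouse. Hnf4g acts with its paralogue Hnf4a to drive enterocyte differentiation and brush border genes. Maf is needed for the zoned expression of nutrient uptake genes along the villus. Prdm1, also known as Blimp-1, is a repressor that holds the suckling intestine in its immature state until weaning. Bcl6 is a repressor best known from germinal centre B cells. Elf3 and Ehf are closely related epithelial members of the ETS family, and Grhl2 is a grainyhead factor that sustains epithelial junction genes.

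As a group, the 7 genes held a mix of shared and 1-library peaks close to that of all protein-coding genes, while the counts of single genes ranged widely. Of their 72 h peaks, 17 of 57 were called at 72 h only, 29.8% (exact Clopper-Pearson 95% interval 18.4 to 43.4). Among the 37726 72 h peaks in the same windows of all protein-coding genes, 29.0% were called at 72 h only. Of the 0 h peaks, 9 of 46 were called at 0 h only, 19.6% (9.36 to 33.9), beside 19.7% for all genes. These intervals, and those below, cover counting error only and take peaks or genes as independent draws. Peaks of the same gene may not be independent, and the genes were a chosen list, so the intervals are descriptive.

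The strict threshold split these 1-library peaks further. At 72 h only, 10 of 17 peaks were strict, 58.8% (32.9 to 81.6). Among peaks of the 0 h library alone, 1 of 9 was strict, 11.1% (0.281 to 48.2), and the 2 intervals overlap. The authors' deposited lists of enriched regions hold all 10 of the first and the 1 of the second, and no other peak of the 7 genes, so that listing follows the class and adds no measurement. Over all genes 35.8% of 72 h-only peaks and 17.1% of 0 h-only peaks were strict, and both values lie within the intervals for the 7 genes. The 10 strict 72 h-only peaks were spread over 4 of the 7 genes (57.1%, 18.4 to 90.1): Hnf4g had 5, Prdm1 and Grhl2 had 2 each and Elf3 had 1. Of the 18256 protein-coding genes with any peak in their window, 33.3% had a strict 72 h-only peak, a share inside that interval. The only strict 0 h-only peak lay near Elf3, so 1 of 7 genes (14.3%, 0.361 to 57.9) had one, beside 13.0% of all genes. The median number of strict 72 h-only peaks was 1 for the 7 genes and 0 for all genes with a peak. Their median window was 140 kb, against 120 kb for all genes, and longer windows can hold more peaks.

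The numbering of the peak names bears on the 72 h-only calls. Each name ends in a running number that rises with position along each chromosome, and 1427 numbers have no row in the 0 h list. What those numbers stood for is not given in the sources used here. At 4 of the 10 strict 72 h-only peaks, the 0 h rows on either side skip numbers. They run on from 2696 to 2698 at the Prdm1 peak starting at 44454735, from 1340 to 1342 at the Elf3 peak, and from 11596 to 11599 over the stretch that holds both Grhl2 peaks. Over all genes the 0 h numbering skips at 9.05% of strict 72 h-only peaks. At the 5 Hnf4g peaks and the other Prdm1 peak it runs on without a gap. Without the peaks at skips, 2 of the 7 genes, Hnf4g and Prdm1, kept a strict 72 h-only peak. No 0 h-only peak of the 7 genes lay where the 72 h numbering skips.

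**Figure D1:**
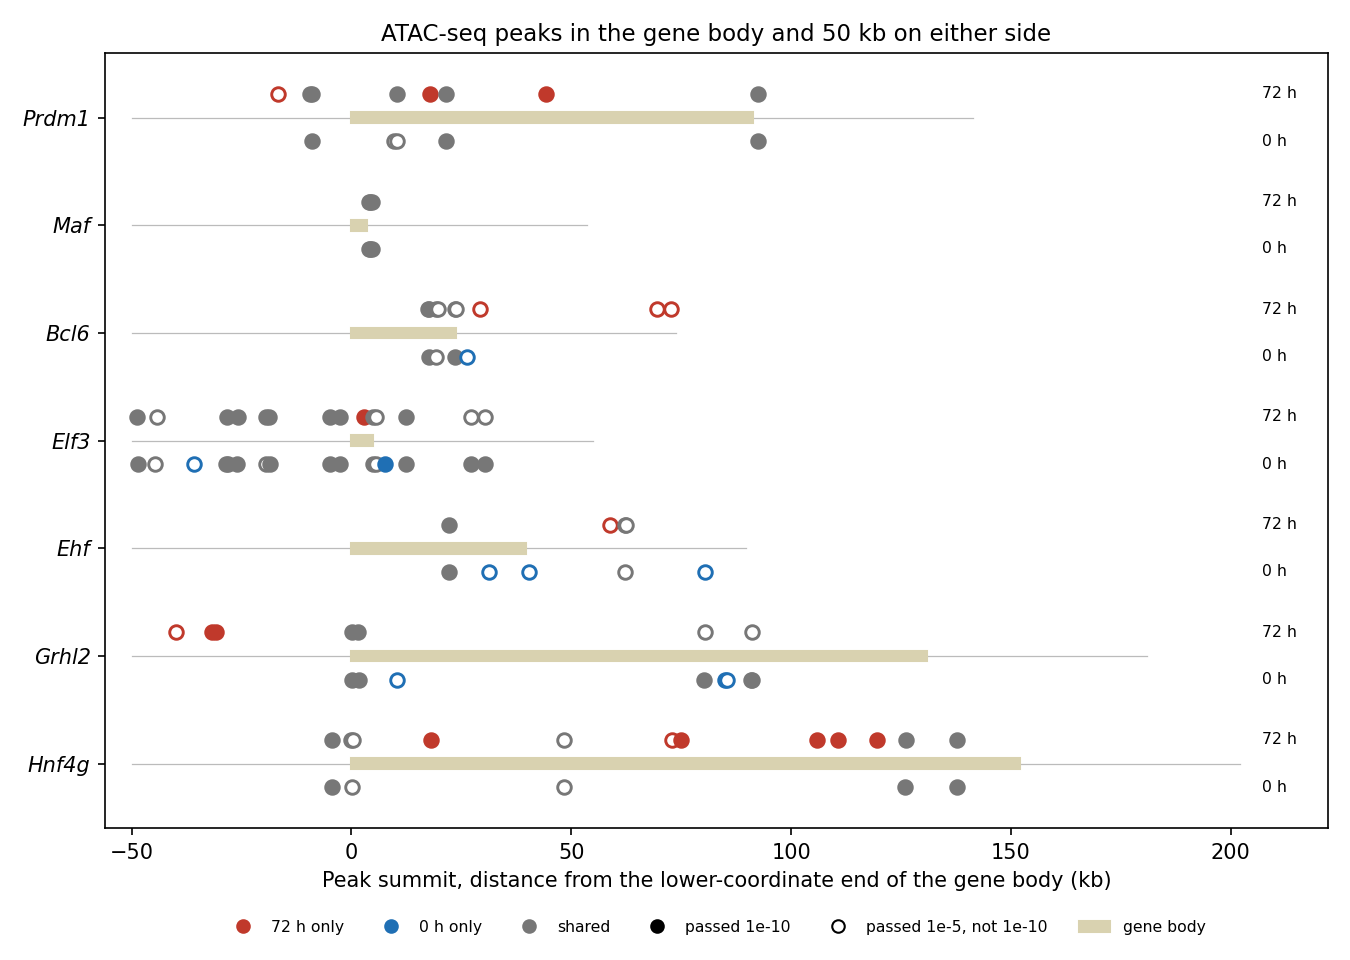
Map of every peak at the 7 genes, with the summit's distance from the lower-coordinate end of the gene body in kb on the x axis and 1 row per gene, the 72 h library above the gene bar and the 0 h library below it. Red marks peaks called at 72 h only, blue those at 0 h only and grey shared ones, and filled points passed 1e-10. The 5 filled red points of Hnf4g all lie inside the gene body, and Maf has grey points alone.

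**Figure D2:**
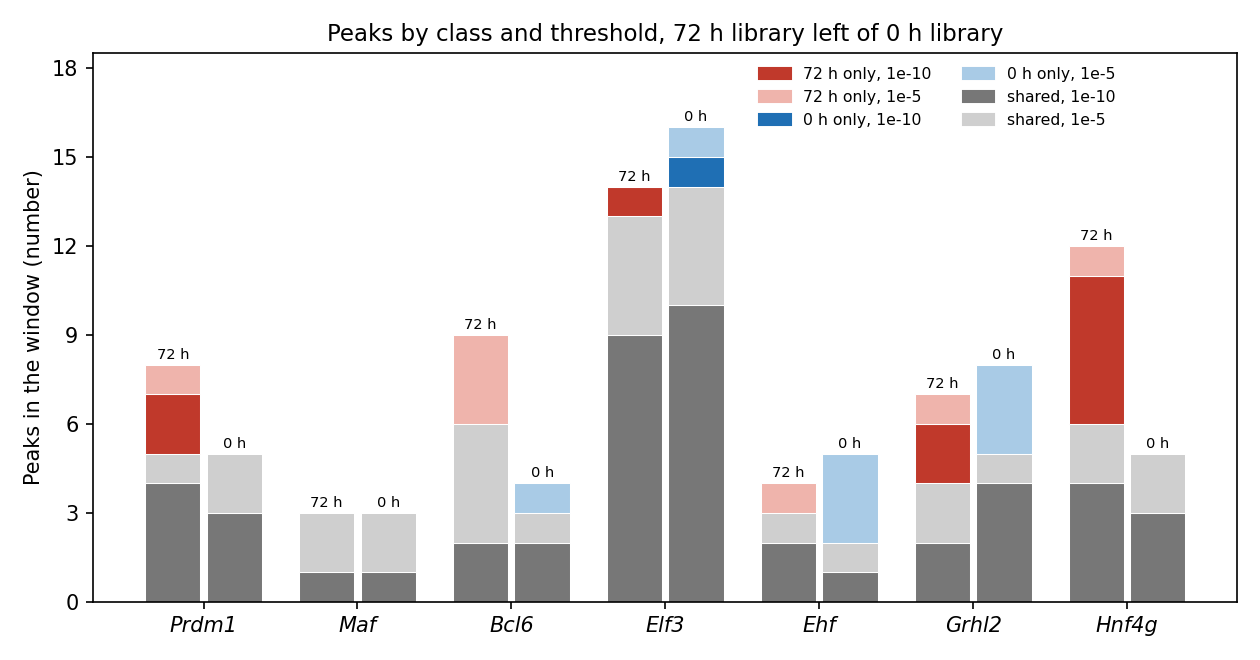
Number of peaks per gene (y axis), with the 72 h library left of the 0 h library and colours for class and threshold. Hnf4g has 12 peaks at 72 h and 5 at 0 h, whereas Elf3 has 14 at 72 h and 16 at 0 h.

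Hnf4g (chromosome 3, 3508030 to 3659800) showed the widest gap between the libraries among the 7 genes. Its window held 12 peaks at 72 h, of which 9 were strict, and 5 peaks at 0 h, of which 3 were strict. None of the 0 h peaks was 0 h only, and 6 of the 72 h peaks were 72 h only. The 5 strict ones all lay inside the gene body, at 3525797 to 3526397, 3582757 to 3583357, 3613537 to 3614137, 3618429 to 3619029 and 3627185 to 3627785. Their summits stood 18.1, 75.0, 106, 111 and 119 kb from the lower end of the gene and spanned 101 kb. The weak one, at 3580634 to 3581234, lay beside the second of them. These peaks were far from any 0 h peak: the gap from the edge of the peak to the nearest 0 h peak ran from 5.91 kb for the last of the strict ones to 26.0 kb for the second.

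The 5 remaining Hnf4g sites were called in both libraries. Overlapping peaks were joined into sites for this count. A site at the lower gene end held 2 peaks at 72 h, of which 1 was strict, and 1 weak peak at 0 h. A site below the gene was strict in both, 4.37 kb away at 72 h and 4.32 kb away at 0 h, as were sites 126 and 138 kb into the gene. A site 48.4 kb into the gene was weak in both. The next peak outside the window lay 506 kb away at 72 h and 493 kb away at 0 h.

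Such a number of strict 72 h-only peaks was uncommon. Of the 18256 genes, 60 had 5 or more, which is 0.329%. Long genes reached it more often: among the 1234 other genes at least as long as Hnf4g and with a peak, 22 had 5 or more, and 42.6% had at least 1. The median over these long genes was 0.

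**Figure D3:**
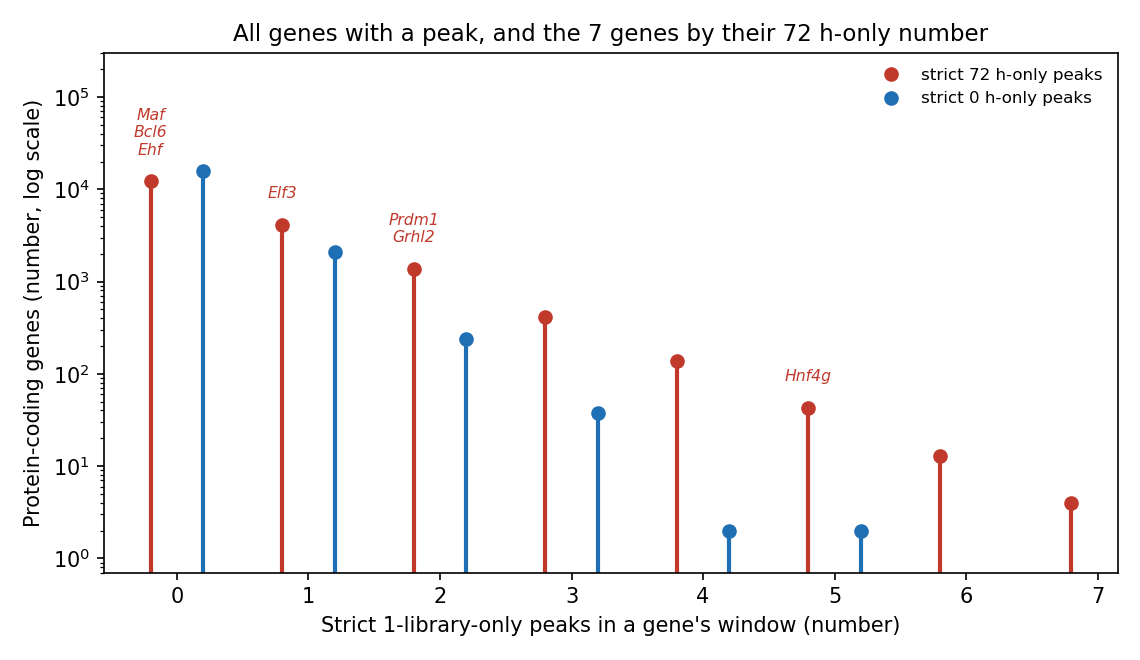
Number of protein-coding genes (y axis, log scale) by the number of strict 1-library-only peaks in their window (x axis), red for 72 h only and blue for 0 h only. Names mark where the 7 genes fall for 72 h-only peaks, with Hnf4g at 5, a number that 43 genes have, and Maf, Bcl6 and Ehf at 0.

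Prdm1 (chromosome 10, 44437174 to 44528558) held 8 peaks at 72 h, 6 of them strict, and 5 at 0 h, 3 of them strict. All 5 peaks at 0 h were shared, and 3 peaks were called at 72 h only. Of genes with a peak in their window, 10.8% had 2 or more strict 72 h-only peaks. The 2 strict 72 h-only peaks of Prdm1 lay in the gene body at 44454735 to 44455335 and 44481234 to 44481834. RefSeq tabulates a transcription start on the minus strand at 44458748, which lies inside the gene body of its gene table. Relative to that start, the first peak lay 3.71 kb downstream and the second 22.8 kb upstream. The weak 72 h-only peak was 16.7 kb outside the body.

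The tabulated start itself was open in both libraries. A strict peak at 72 h had its summit 24 bp downstream of it and a strict peak at 0 h had its summit 21 bp downstream, and each covered the whole start window of 300 bp. A site inside the gene, at 44446677 to 44447899, had 1 strict peak at 72 h and 2 weak peaks at 0 h. A site above the upper gene end was strict in both libraries, with its summit 1.00 kb away at 72 h and 1.01 kb away at 0 h. So was a site below the lower end, 9.03 kb away at 72 h and 9.02 kb away at 0 h, which overlaps the start window of the predicted gene Gm35028. No further peak was called within 169 kb of the gene in either library.

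The start windows of Prdm1, Elf3 and Bcl6 are shown because they let the shared peaks be read at the level of bases. RefSeq windows run from 250 bases before to 50 bases after a tabulated start (GRCm38.p6), and the table matched 3 of the 7 genes. Each is written 5′ to 3′ on the gene's own strand, here the minus strand. Capitals mark matches, on either strand, to 12 searched motifs.
Prdm1, chr10:44458699-44458998: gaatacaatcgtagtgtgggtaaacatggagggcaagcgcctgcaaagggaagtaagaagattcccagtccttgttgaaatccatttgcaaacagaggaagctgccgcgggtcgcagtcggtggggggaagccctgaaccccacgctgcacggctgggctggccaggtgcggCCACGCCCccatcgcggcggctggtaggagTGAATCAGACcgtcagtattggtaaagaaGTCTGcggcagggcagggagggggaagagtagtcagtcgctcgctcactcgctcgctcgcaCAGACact
Elf3, chr1:135258423-135258722: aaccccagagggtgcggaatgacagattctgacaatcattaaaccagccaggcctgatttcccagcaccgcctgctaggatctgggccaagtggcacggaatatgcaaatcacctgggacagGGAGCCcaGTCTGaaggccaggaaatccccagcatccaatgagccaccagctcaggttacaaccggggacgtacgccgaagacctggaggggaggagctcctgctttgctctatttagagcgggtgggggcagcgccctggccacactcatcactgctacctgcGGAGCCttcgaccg
Bcl6 outer start, chr16:23988803-23989102: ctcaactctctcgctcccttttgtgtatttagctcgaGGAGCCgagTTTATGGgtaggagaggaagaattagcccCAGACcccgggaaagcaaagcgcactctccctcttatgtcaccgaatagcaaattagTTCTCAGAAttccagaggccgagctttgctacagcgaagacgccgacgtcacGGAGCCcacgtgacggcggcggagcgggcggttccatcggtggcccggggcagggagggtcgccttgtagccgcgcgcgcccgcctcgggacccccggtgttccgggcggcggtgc
Bcl6 inner start, chr16:23981234-23981533: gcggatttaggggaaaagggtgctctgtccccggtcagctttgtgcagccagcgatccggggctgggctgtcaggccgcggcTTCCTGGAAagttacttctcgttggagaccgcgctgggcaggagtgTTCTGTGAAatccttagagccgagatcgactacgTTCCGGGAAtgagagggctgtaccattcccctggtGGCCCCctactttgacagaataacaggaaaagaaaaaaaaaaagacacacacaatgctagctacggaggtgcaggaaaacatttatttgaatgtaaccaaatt

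The motifs were CAAAGTCCA for HNF4, AGATAA for GATA factors, TTTATNG for CDX, GGGNGTGG for KLF, AGGAAGT for the ETS factors, AACNNGTT for GRHL, TGANTCA for AP-1, GGNGCC and, separately, CAGAC for SMADs, AAAGTGAAA for PRDM1, TTCNNNGAA for BCL6 and TGCTGA for MAF. The Prdm1 window held 1 KLF match, 1 AP-1 match and 3 CAGAC matches. The AP-1 match read TGAATCA, with A at the middle position, where the searched letters allow any base. It shared its last letters with the first CAGAC match. The Elf3 window held 2 GGNGCC matches and 1 CAGAC match. Both SMAD motifs are short and frequent, with a match in 55.4% and 49.6% of the 32851 tabulated windows. The KLF motif occurred in 17.6% and the AP-1 letters, with any middle base, in 7.81%. The inner Bcl6 window held 3 matches to the BCL6 motif, whose letters STAT factors also recognise, at positions -168, -122 and -88 from the start, and the outer window held 1, at -118. Of all windows 8.30% had at least 1 such match. The outer Bcl6 window also held 1 CDX match, 2 GGNGCC matches and 1 CAGAC match, and the inner one 1 GGNGCC match. None of the 4 windows matched the HNF4, GATA, ETS, GRHL, PRDM1 or MAF letters, which were found in 0.475%, 11.2%, 9.35%, 4.20%, 0.594% and 19.5% of all windows. The CDX letters were found in 10.9%. A match is a description of letters and not a binding site.

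Elf3 (chromosome 1, 135253574 to 135258472) is short, at 4.90 kb, but its window was the most crowded of the 7, with 14 peaks at 72 h and 16 at 0 h. Strict peaks numbered 10 at 72 h and 11 at 0 h. Joined into sites, 13 of 16 were shared. Only 2.04% of genes with a peak had 16 or more sites, and the median was 5. The tabulated start was open in both libraries, with the strict summit 96 bp upstream of it at 72 h and 47 bp upstream at 0 h.

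Each library had 1 strict peak of its own near Elf3, a pattern found at 4.67% of all genes with a peak. At 72 h it lay in the gene body, at 135256194 to 135256794, with 1425 bp to the nearest 0 h peak. At 0 h it lay 2.64 kb above the upper gene end, at 135260816 to 135261416, between Elf3 and the peptidase gene Rnpep, with 1303 bp to the nearest 72 h peak. The midpoint of the 0 h peak is nearer to Rnpep than to Elf3, and no strict 0 h-only peak remained when each peak was given to its nearest gene alone. Of the Elf3 window's peaks, 3 of 14 at 72 h and 4 of 16 at 0 h were nearer to Rnpep. Among them, shared sites 22.4 and 25.6 kb above Elf3 were weak at 72 h and strict at 0 h, and the second overlaps the tabulated start window of Rnpep.

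Ehf (chromosome 2, 103263431 to 103303275) held 4 peaks at 72 h, 2 of them strict, and 5 at 0 h, 1 of them strict. It leaned the other way from Hnf4g, with 1 peak at 72 h only and 3 at 0 h only, all weak. More 0 h-only than 72 h-only peaks were found at 26.3% of genes with a peak. The 0 h-only peaks lay inside the gene at 103294520 to 103295120, 0.527 kb above its upper end and 40.6 kb above it. The 72 h-only peak lay 19.1 kb above the upper end. A shared site next to it, 22.3 kb above the end, was strict at 72 h and weak at 0 h. A site inside the gene, at 103285397 to 103286027, was strict in both. For this ETS gene the libraries thus differed in weak peaks, apart from that 1 shared site.

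Grhl2 (chromosome 15, 37232821 to 37363569) held 7 peaks at 72 h and 8 at 0 h, with 4 strict peaks in each. The 1-library peaks of the 2 times fell in different places. The 3 called at 72 h only lay outside the gene, below its lower end: 2 strict ones at 37200907 to 37201507 and 37201755 to 37202355, about 31 kb away, and a weak one 39.9 kb away. As given for Prdm1, 10.8% of genes with a peak had 2 or more strict 72 h-only peaks. The 3 called at 0 h only at Grhl2 were weak and lay inside the gene, 10.4, 85.1 and 85.4 kb from the lower end. The site at the lower gene end had its summit at the same base in both libraries and was strict in both. Shared sites at 37312768 to 37313462 and 37323469 to 37324281, farther inside the gene, were weak at 72 h and strict at 0 h.

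Bcl6 (chromosome 16, 23965050 to 23988866) held 9 peaks at 72 h and 4 at 0 h, yet 2 were strict in each. Its 1-library peaks were all weak, 3 of the 72 h library and 1 of the 0 h library. The 72 h-only peaks lay 5.36, 45.8 and 48.9 kb above the upper gene end and the 0 h-only peak 2.54 kb above it. Just past the window, 51.1 kb from the gene, the 72 h library had a strict 72 h-only peak, and 68.5 kb from it the 0 h library had a strict 0 h-only peak; the limit of 50 kb leaves out both. Strict sites in both libraries lay at 23982131 to 23983009 and, around the outer start, at 23988308 to 23989217.

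The 2 tabulated Bcl6 starts differed. The outer window was covered over all 300 bp by 72 h peaks, including a weak one with its summit 65 bp upstream of the start. At 0 h a strict peak covered 106 bp of it, with the summit 244 bp downstream of the start. The strict 72 h peak of the same site had its summit at 23988657, only 49 bp from that 0 h summit. The inner window was overlapped by no peak in either library. Of all tabulated start windows 34.9% were overlapped by a peak in both libraries, as were those of Prdm1, Elf3 and the outer Bcl6 start.

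Maf (chromosome 8, 115703253 to 115706894) held 3 peaks at 72 h and 3 at 0 h, and all formed 1 shared site just above the upper gene end, at 115706997 to 115708221. In each library 1 of the 3 was strict, with its summit 1.02 kb from the gene at 72 h and 1.03 kb at 0 h. No 1-library peak was called in its window, as at 18.1% of genes with a peak. The nearest peak beyond 50 kb was a weak 72 h-only one 64.3 kb away at 72 h, and a weak shared one 123 kb away at 0 h. Within 50 kb of this factor of villus zonation, peak calls thus did not tell the libraries apart. Peak height was not available, so a change within the site could not be seen.

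Sites called in both libraries gave a second reading, by threshold. Of the 32 shared sites at the 7 genes, 20 were strict in both libraries and 4 in neither. A further 4 were strict at 72 h only, 12.5% (3.51 to 29.0), and as many were strict at 0 h only. Over all genes, 13.6% of 22250 shared sites were strict at 72 h only and 8.43% at 0 h only, both within the interval. Those strict at 72 h only were 1 each at Hnf4g, Prdm1, Ehf and Elf3, and those strict at 0 h only were 2 each at Grhl2 and Elf3. The nearest 72 h and 0 h summits of a shared site were a median of 44 bp apart at the 7 genes and 24 bp apart over all genes. They lay within 50 bp at 23 of the 32 sites, and within 50 bp at 74.4% of shared sites of all genes. The widest offset, 406 bp, was at a weak Elf3 site.

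**Figure D4:**
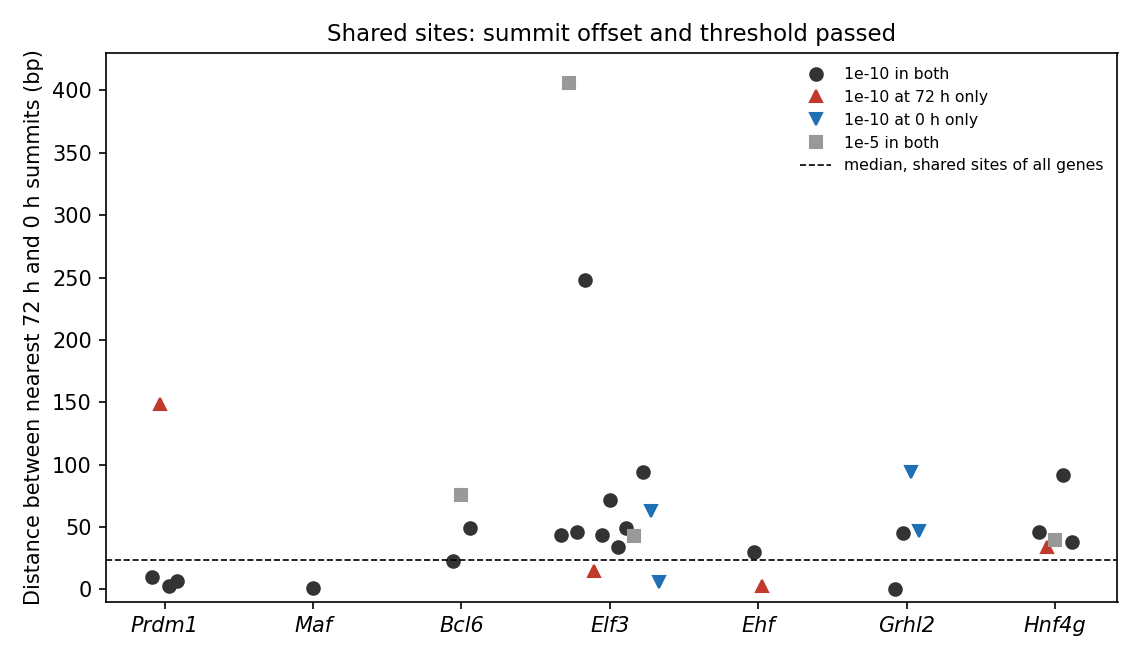
Distance in bp between the nearest 72 h and 0 h summits (y axis) for each shared site, by gene, with the marker giving the threshold passed. Most sites lie below 100 bp, and the dashed line is the median of 24 bp over shared sites of all genes.

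Relatives of the 7 genes and other intestinal factors were counted in the same way, beside the 33.3% and 13.0% of all genes. Of 18 family relatives with a peak, 11 had a strict 72 h-only peak and 5 a strict 0 h-only one. Mafg and Prdm16 had 2 at 72 h and 1 at 0 h each, Mafk and Prdm4 had 2 at 72 h, Elf1 had 1 in each library, and Elf2 had 2 at 0 h. Bcl6b, Elf4 and Grhl1 had 1 at 72 h and Grhl3 had 1 at 0 h. Hnf4a, the paralogue of Hnf4g, had 16 peaks in each library, with 1 strict peak at 72 h only and none at 0 h only, against 5 and none at Hnf4g. Of 10 intestinal identity factors, 3 had a strict 72 h-only peak, among them Gata4 with 3 and Gata6 with 1. A strict 0 h-only peak was found at 5, among them Foxa1 with 2, and Cdx2, Foxa2 and Gata5 with 1 each. Of 10 Kruppel-like factors, 5 had a strict 72 h-only peak (Klf3 and Klf6 with 2, and Klf4, Klf10 and Klf13 with 1) and 2 a strict 0 h-only one (Klf2 and Klf4). The median number of strict 72 h-only peaks was 1 for the relatives, 0 for the identity factors and 0.5 for the Kruppel-like factors.

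The same count was made for genes that mark zones of the villus, which were not tested against the 4 of 7 factor genes. These lists too were chosen with earlier results of these data known. Over all genes with a peak, 33.3% had a strict 72 h-only peak and 13.0% a strict 0 h-only one. Of 12 mid-villus genes, 10 had a strict 72 h-only peak. They were led by Slc15a1 with 4, and Fabp1, Fabp2, Slc5a1, Slc7a7 and Slc7a9 with 3 each. Of 9 villus-bottom genes, 8 had one, led by Il18 with 3, and Lypd8 and Nlrp6 with 2 each. Of 13 villus-tip genes, 7 had one, led by Xdh with 4 and Krt20 with 3. Strict 0 h-only peaks were found at 2 mid-villus, 1 villus-bottom and 2 villus-tip genes. Some windows overlap, such as those of Apoa1 and Apoa4 and of Reg1 and Reg3g, so 1 peak can count for several listed genes.

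By their numbers of shared and 1-library sites in the 2 libraries, some of the 7 genes had many counterparts among 18255 other genes and others few. The counts of Hnf4g (5 shared, 6 at 72 h alone, none at 0 h alone) were matched exactly by 5 genes, of which Ctdspl, Atxn2 and Syne3 were nearest in length. Those of Prdm1 were matched by 121 genes (nearest Lonp2, Slc20a2 and Foxj3), of Bcl6 by 88 (Apol7e, Zmym5 and Lsmem1), of Grhl2 by 50 (Akap7, Slc16a10 and Ube2h) and of Ehf by 28 (Gpa33, Srpk1 and Dusp27). Those of Maf, a single shared site, were matched by 1114 (Ndufa1, Rbmxl1 and Irx5). No gene matched Elf3, and the nearest, Cyb5d1, Ly6g6f and Asic3, had 1 shared site fewer.

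Peaks at markers of cell types were counted in both libraries. The share of all genes with such a peak is not given here, and a peak call shows neither expression nor cell identity. A strict peak in the gene body or within 1 kb was called at 7 of 8 epithelial markers at 72 h (all but Krt18) and at 8 of 8 at 0 h. Of 10 markers of immune, endothelial and mesenchymal cells, 3 had one at 72 h and 2 at 0 h. The fibroblast markers Pdgfra and Col1a1 had one in both libraries and the endothelial marker Pecam1 had one at 72 h alone, while Ptprc, Cd3e, Cdh5 and Acta2 were among those with none in either. Villus enterocyte markers had one at 2 of 4 genes at 72 h (Alpi and Krt20) and at 0 of 4 at 0 h. Crypt markers had one at 1 of 3 at 72 h (Lgr5) and at 2 of 3 at 0 h (Lgr5 and Ascl2). The part of a changed cell mix in the peak calls at the 7 genes was not tested.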

How the data were processed

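ATAC-seq peak lists of the 72 h and 0 h libraries were used, 1 library per time point. The authors deposited, for each library, peaks at a p-value threshold of 1e-05, those passing 1e-10, and regions listed as enriched; rows hold a chromosome, start, end and peak name, without signal, score or count, and the deposited strict lists are subsets of the lenient ones by name. The submitters' processing notes name the mm10 build, MACS2 2.2.7.1, Bowtie2 2.4.1, cutadapt 1.9.1, bedtools 2.26.0, deepTools 3.5.4, SAMtools 1.3.1 and Picard 2.18.27. Settings, including any Tn5 shift, were not given in the sources used here, and the depth is unknown.

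Peaks were assigned with Python 3.11.15 to each protein-coding gene on chromosomes 1 to 19, X and Y whose body or 50 kb flank held the midpoint, so 1 peak can count for several genes. The gene table gives no strand or exons. Coordinates are 1-based. Shares carry exact Clopper-Pearson intervals (SciPy 1.17.1). Class assignment was tested on simulated peaks. List genes named are those with a strict 1-library-only peak, at most 10 per list and fewer for the villus lists; like genes are the 3 with the nearest site counts. Values of some list genes are not reported here. The 7 genes, the lists and the motifs were chosen with earlier results of these data known. No genome sequence was used, so motifs were searched only in RefSeq start windows. Alternatives varied the window, overlap, threshold, assignment and merging.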

Additional observations from a re-analysis of the deposited data

How the results depend on the processing

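The 1-library-only counts changed with the window and with other choices. The 17 peaks at 72 h only became 9 in gene bodies alone, 10 within 10 kb and 24 within 100 kb. They became 22 when a shared peak needed at least 300 bp of overlap. In choices made after seeing the data, they became 11 without Hnf4g and 12 without peaks where the other library's numbering skips. The 9 at 0 h only became 4 in gene bodies, 7 within 10 kb and 12 within 100 kb. They became 11 with at least 300 bp of overlap and 5 when 1e-10 lists were compared with each other. The 1 gene with a strict 0 h-only peak became 0 in gene bodies, 0 by nearest gene and 0 without Elf3, and 2 within 100 kb and 2 between the 1e-10 lists. The 4 genes with a strict 72 h-only peak became 2 without peaks where the other library's numbering skips, also chosen after seeing the data. They became 3 in gene bodies and 3 within 10 kb, and 5 within 100 kb and 5 between the 1e-10 lists. The shares stayed within their counting intervals under all alternatives run, from 23.1% to 41.2% for 72 h only and from 14.6% to 23.9% for 0 h only. No paired analysis was possible because each time point is 1 library. Without depth or peak height, a site present in both libraries cannot be compared beyond its threshold.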
